A study of Mus musculus with 2 samples.

Results

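The genes of MHC class I and of the machinery that loads class I molecules with peptide were followed in mouse bone marrow-derived macrophages. They were chosen by symbol from the expression table: every symbol beginning H2-K, H2-D, H2-Q, H2-T or H2-M with a digit directly after it, plus B2m, Tap1, Tap2, Tapbp, Tapbpl, Erap1 and Nlrc5. The rule gave 35 of the 34714 genes in the table, of which 28 encode class I heavy chains or their close relatives and 7 encode the light chain, loading and trimming proteins and a regulator. The macrophages came from C57BL/6 marrow grown in 20 ng/mL macrophage colony-stimulating factor. Cells of the first group were given the anti-CD40 monoclonal antibody FGK45 for 24 h to activate CD40, a costimulatory receptor of antigen-presenting cells, and cells of the control group were given IgG for the same time. Each group is 1 RNA-seq library, and without replicates no p-value or standard error was computed. The labels do not state the number of mice or cultures behind each library.

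MHC class I molecules are surface complexes of a heavy chain with beta-2-microglobulin that show peptides from inside the cell to CD8 T cells. Peptides are cut by the proteasome, carried into the endoplasmic reticulum by the TAP transporter, trimmed there by ERAP1 and placed on the heavy chain with the help of tapasin. In the mouse, H2-K and H2-D are the classical, highly polymorphic heavy chains, and the Q, T and M regions hold the less polymorphic, non-classical ones. Macrophages carry class I constitutively, and interferons and NF-kB signals are known to raise it. PIR-A and PIR-B, the paired receptors the first of which the series title names, are known to bind class I molecules.

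Values are FPKM, that is, fragments scaled by transcript length and library size, a reading of the unit that the table's header does not state. The steps between low values put the worth of 1 FPKM at 20.5 fragments per kilobase of transcript in the anti-CD40 library and 18.6 in the IgG library, a depth ratio of 1.10. Folds are ratios of the FPKM values, and the interval with each is a 95% exact conditional binomial interval on approximate fragment numbers that covers counting error only, since PCR copies without molecular identifiers are not independent molecules. Among the 9101 genes that reached 1 FPKM in each library, the median fold was 1.11 in favour of anti-CD40, so a fold near 1.11 is that of a typical gene. All 6 macrophage markers (Csf1r, Adgre1, Cd68, Lyz2, Mertk and Itgam) were at 1 FPKM or more, with summed levels of 14858 FPKM under anti-CD40 against 12647 under IgG. Lyz2 made up most of both sums, at 13423 against 11326 FPKM. Cd68 had 991 against 894 FPKM, Csf1r 332.8 against 333.5, Adgre1 94.4 against 78.3, Itgam 12.5 against 10.9 and Mertk 4.37 against 3.83. Of 26 markers of dendritic, T, B, NK and mast cells, neutrophils and fibroblasts, Cd4 and S100a8 alone reached 1 FPKM, at 3.94 against 3.04 FPKM and 1.82 against 1.11, while Flt3, Cd3e, Cd3d, Cd8a, Pax5, Ncr1, Eomes, Ly6g, Mpo and Mcpt4 were listed at 0 in both libraries. The summed levels of the marker lists below 1 FPKM were 0.965 FPKM with anti-CD40 against 0.311 with IgG for fibroblasts (Col1a1 0.406 against 0.0319), 0.617 against 0.267 for B cells, 0.273 against 0.202 for NK cells, 0.148 in both for dendritic cells and 0.858 against 0.845 for mast cells. Any part of such cells in the class I values was not tested. In bulk RNA, fewer cells of a type and less RNA per cell cannot be told apart.

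Class I promoters are known for a compact upstream block with an NF-kB site (enhancer A), an interferon response element read by IRF proteins, and an X2 and a Y element used by CREB-type, RFX and NF-Y factors together with NLRC5. RefSeq promoter windows of GRCm38.p6, from 250 bases before to 50 after the start, were found for 26 of the 35 genes, among them 13 of the 19 that reached 1 FPKM and 9 of their heavy chains. The 250 bases before the start are printed below for both classical genes, for H2-Q4 and H2-T23 as the most abundant Q and T region genes, and for B2m, because their values in the 2 libraries are compared next. Where a gene had several starts, the one furthest downstream was used. The windows are chr17:35262844-35263093 (plus strand) for H2-D1, chr17:34000334-34000583 (minus) for H2-K1, chr17:35379367-35379616 (plus) for H2-Q4, chr17:36032702-36032951 (minus) for H2-T23 and chr2:122147437-122147686 (plus) for B2m. Capitals mark matches on either strand to GGGNNTTCC (NF-kB type), GAANNGAAA (short IRF type) or the longer form of GAAA, any 2 bases and GAAA (IRF type), TGACGC (X2 type) and CCAAT (Y type), and no 2 marked matches overlap.
H2-D1: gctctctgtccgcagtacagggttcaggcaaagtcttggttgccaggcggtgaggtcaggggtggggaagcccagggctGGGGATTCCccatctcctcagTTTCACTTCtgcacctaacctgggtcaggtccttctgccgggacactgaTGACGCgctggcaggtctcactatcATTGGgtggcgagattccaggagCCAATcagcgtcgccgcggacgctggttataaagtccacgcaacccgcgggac
H2-K1: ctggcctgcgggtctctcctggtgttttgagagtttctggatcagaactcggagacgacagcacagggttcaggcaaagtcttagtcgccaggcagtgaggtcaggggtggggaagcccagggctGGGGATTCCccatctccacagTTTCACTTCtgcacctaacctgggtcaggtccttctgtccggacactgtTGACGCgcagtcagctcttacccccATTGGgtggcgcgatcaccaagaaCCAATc
H2-Q4: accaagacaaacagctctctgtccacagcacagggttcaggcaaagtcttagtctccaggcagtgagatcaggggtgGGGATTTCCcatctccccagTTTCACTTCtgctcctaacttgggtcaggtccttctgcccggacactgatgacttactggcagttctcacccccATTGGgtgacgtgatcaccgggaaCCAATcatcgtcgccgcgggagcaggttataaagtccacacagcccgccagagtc
H2-T23: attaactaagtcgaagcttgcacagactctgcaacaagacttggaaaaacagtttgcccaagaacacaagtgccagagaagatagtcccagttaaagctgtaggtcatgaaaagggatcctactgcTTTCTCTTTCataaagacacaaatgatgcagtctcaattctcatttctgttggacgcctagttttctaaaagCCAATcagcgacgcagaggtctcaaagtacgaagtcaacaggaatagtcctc
B2m: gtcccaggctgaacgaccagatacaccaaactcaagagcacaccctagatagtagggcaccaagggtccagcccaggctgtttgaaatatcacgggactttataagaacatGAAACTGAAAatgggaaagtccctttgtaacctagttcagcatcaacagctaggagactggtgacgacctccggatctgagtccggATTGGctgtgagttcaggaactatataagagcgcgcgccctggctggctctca

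H2-D1 and H2-K1 carried the same series of matches in the same order. In both, the NF-kB-type match began 21 bases before the IRF-type match, 70 before TGACGC and 95 before the inverted CCAAT. The H2-Q4, H2-Q6 and H2-Q7 windows held the same order without a TGACGC before the start, at 94, 94 and 93 bases from the NF-kB-type match to the inverted CCAAT. Between H2-D1 and H2-K1, 87.2% of 203 aligned bases were identical, and the 10 pairs among the H2-K, H2-D and H2-Q windows ranged from 83.8% to 97.6%. The 26 pairs that included an H2-T or H2-M window ranged from 54.3% to 67.5%. GGGNNTTCC was found in 6 of the 9 heavy chain windows, against 5.82% of the 32851 windows in the RefSeq table. The shorter IRF-type form GAANNGAAA, added after the windows had been seen, was in 7 of 9, against 7.52% of all windows. The longer form was in 2 of 9, H2-T22 and H2-T23, as well as in the windows of B2m and Erap1, against 3.44% of all windows. TGACGC was in 4 of 9 against 7.40%, with the H2-Q4 match lying 30 bases after the start, and CCAAT in 9 of 9 against 37.4%. A match describes the letters and does not show that a factor binds there.

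**Figure D1:**
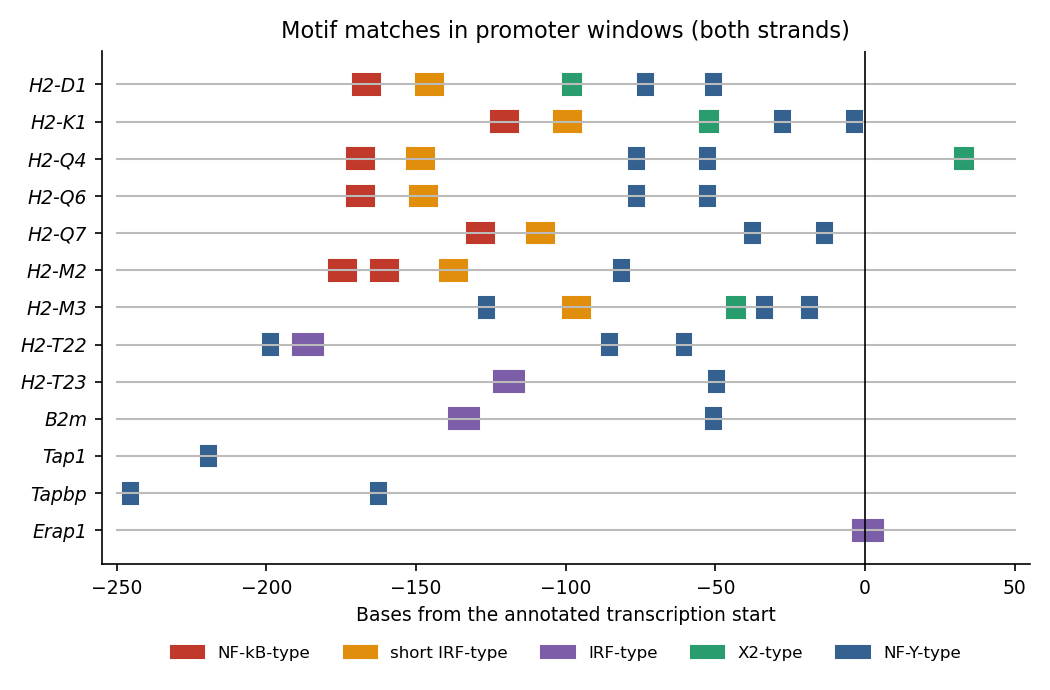
Position of each motif match in the promoter windows of 13 genes, in bases from the annotated transcription start (vertical line at 0), with colours for the kind of motif. The H2-D1, H2-K1, H2-Q4, H2-Q6 and H2-Q7 rows show the NF-kB-type match followed by the short IRF-type match and 2 CCAAT matches, whereas H2-T23 and B2m show the longer IRF-type form and 1 CCAAT match each.

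The classical heavy chains were the most abundant genes of the group, and H2-D1 differed between the libraries far more than H2-K1. H2-D1, on GRCm38 chromosome 17 from 35263094 to 35267497, measured 1795 FPKM under anti-CD40 against 1143 under IgG, a ratio of 1.57 (interval 1.54 to 1.61). It was the 39th highest of all genes in the anti-CD40 library and the 77th in the IgG library. H2-K1 (chromosome 17, 33996012 to 34000619) measured 1531 and 1425 FPKM, a ratio of 1.07 (interval 1.06 to 1.09). Against the median gene, H2-K1 was thus 0.971-fold, and its direction turned from higher to lower when log2 ratios were centred on the median or both libraries were scaled to their upper quartile. The order of the pair turned as well: the H2-D1 level was 1.17 times that of H2-K1 with anti-CD40 and 0.802 times with IgG. H2-D1 therefore lay well above the median of all genes, and H2-K1 lay slightly below it.

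**Figure D2:**
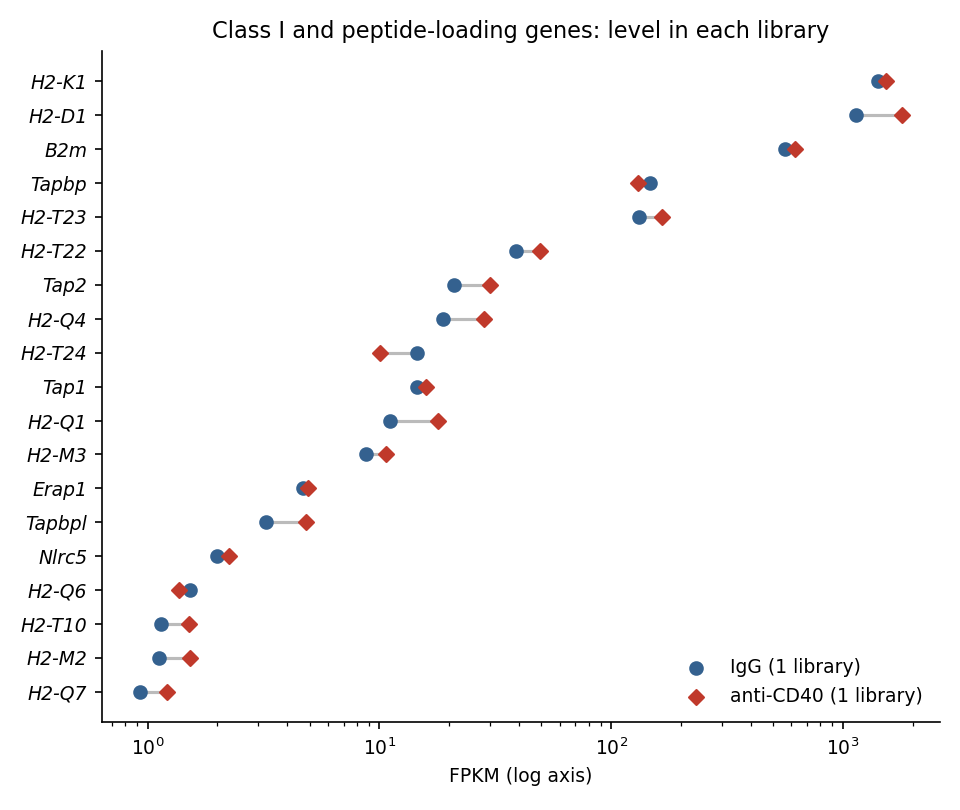
FPKM on a log axis of the 19 genes that reached 1 FPKM, ordered by their IgG level, with a circle for the IgG library and a diamond for the anti-CD40 library. Levels run from about 1 FPKM for H2-Q7 to 1531 for H2-K1 and 1795 for H2-D1 with anti-CD40, and the anti-CD40 value is the lower one for H2-T24, Tapbp and H2-Q6.

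B2m, the light chain shared by all class I molecules (chromosome 2, 122147687 to 122153082), measured 619 FPKM under anti-CD40 against 562 under IgG. Its fold of 1.10, with an interval from 1.07 to 1.13, was close to that of the median gene. B2m ranked 129th with anti-CD40 and 141st with IgG among all genes, behind H2-D1 and H2-K1 in both libraries.

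Of the 8 Q region genes, 4 reached 1 FPKM. H2-Q4 (chromosome 17, 35379617 to 35384674) had 28.2 FPKM under anti-CD40 against 18.8 under IgG, a ratio of 1.5 (interval 1.37 to 1.64). H2-Q1 (chromosome 17, 35320525 to 35328142) had 17.8 and 11.1 FPKM, a ratio of 1.6 (interval 1.42 to 1.81) that made it the highest fold among the 19 genes. Of all 50-base stretches of its transcript, 7.7% also occurred in H2-D1, which is far more abundant and had a fold of 1.57. Any part of H2-D1 reads in the H2-Q1 value was not tested. H2-Q6 and H2-Q7, which encode the Qa-2 antigen, were low: H2-Q6 had 1.36 against 1.52 FPKM, and H2-Q7 had 1.21 against 0.925. Their intervals, from 0.579 to 1.41 and from 0.761 to 2.27, both hold 1. H2-Q7 was the 1 gene of the 19 that reached 1 FPKM in a single library. The other Q region genes were H2-Q8, H2-Q9 and H2-Q10, at 0.163 to 0.725 FPKM, and H2-Q2, listed at 0 in both libraries. RefSeq places H2-Q8, H2-Q9 and H2-T18 outside the run of H2 genes on the reference chromosome, and no position is given for them here. The related genes H2-Q6 to H2-Q9 summed to 3.03 FPKM under anti-CD40 against 2.95 under IgG. The higher Q region sum of 49.5 against 33.6 FPKM thus came from H2-Q4 and H2-Q1.

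In the T region, the Qa-1 heavy chain H2-T23, which is known to present leader peptides of other class I heavy chains to NK cell receptors, was the most abundant gene (chromosome 17, 36029977 to 36032701). It had 166 FPKM under anti-CD40 against 132 under IgG, a ratio of 1.26 (interval 1.21 to 1.31). H2-T22, whose product is known as a ligand of gamma-delta T cells (chromosome 17, 36037128 to 36042742), had 49.3 and 38.9 FPKM, a ratio of 1.27 (interval 1.18 to 1.37). The level of H2-T23 was 3.37 times that of H2-T22 with anti-CD40 and 3.40 times with IgG, so the pair kept nearly the same proportion. H2-T10, close in sequence to H2-T22, had 1.5 and 1.14 FPKM, with an interval from 0.839 to 2.06 on its fold of 1.32. H2-T24 (chromosome 17, 36003471 to 36020800) went the other way, with 10.1 FPKM under anti-CD40 against 14.5 under IgG. It was 1.44-fold lower with anti-CD40 (interval 1.24-fold to 1.68-fold) and remained lower under each of the 6 scalings and pseudocounts tried. Of these settings, only scaling both libraries to the same sum can turn a lower gene. It moved the H2-T24 log2 ratio from -0.488 to -0.443, too little for a turn, so the agreement was fixed in advance. H2-T24, H2-T23 and H2-T22 lie side by side under the long noncoding RNA A930015D03Rik, which was listed at 0 in both libraries. H2-T3 and H2-T18 were listed at 0 in both libraries.

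In the M region, 10 of the 12 genes were listed at 0 in both libraries, among them all 6 of the H2-M10 group. A listing of 0 can be a failed estimate in a table of this kind, so it is not read as absence. H2-M3, which is known to present N-formylated bacterial and mitochondrial peptides (chromosome 17, 37270234 to 37274485), had 10.7 FPKM under anti-CD40 against 8.74 under IgG, a ratio of 1.22 (interval 1.03 to 1.45). H2-M2 had 1.53 against 1.12 FPKM, with an interval from 0.837 to 2.23 on its fold.

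Close copies can exchange reads, so the sum over the 28 heavy chain genes was also taken. It was 3614 FPKM under anti-CD40 against 2798 under IgG, 1.29-fold higher. H2-D1 accounted for 79.9% of that difference and H2-K1 for 13%. H2-D1 made up 49.7% of the sum with anti-CD40 and 40.9% with IgG, H2-K1 42.4% and 50.9%, and H2-T23 4.59% and 4.72%. Without H2-D1 the sum was 1819 against 1655 FPKM, 1.10-fold, close to the median gene, and without both classical genes it was 288 against 230.0 FPKM, 1.253-fold. The summed heavy chain level was 5.84 times the B2m level with anti-CD40 and 4.98 times with IgG. Of all 150-base stretches of the longest coding GENCODE transcript of H2-D1, 1.79% also occurred in a transcript of another gene, in each case H2-Q1, and 0% of those of H2-K1 did. At 50 bases the shares were 14.3% and 8.79%. The highest shares at 50 bases were 44.7% for H2-T22 and 42.9% for H2-T10, mostly with each other, 34.9% for H2-Q7 and 32.0% for H2-Q6. H2-T23 stood at 28.8%, H2-Q4 at 24.3% and H2-Q1, with the highest fold of the 19 genes, at 22.9%. At 150 bases the order differed, with 9.68% for H2-Q7, 5.99% for H2-Q6, 4.64% for H2-Q1, 1.13% for H2-T10, 0.931% for H2-T22, 0.831% for H2-T23 and 0% for H2-Q4. The values of all these genes thus carry some uncertainty from shared reads. H2-Q8, H2-Q9 and H2-T18 had no transcript in this comparison, so stretches shared with them are not counted.

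**Figure D3:**
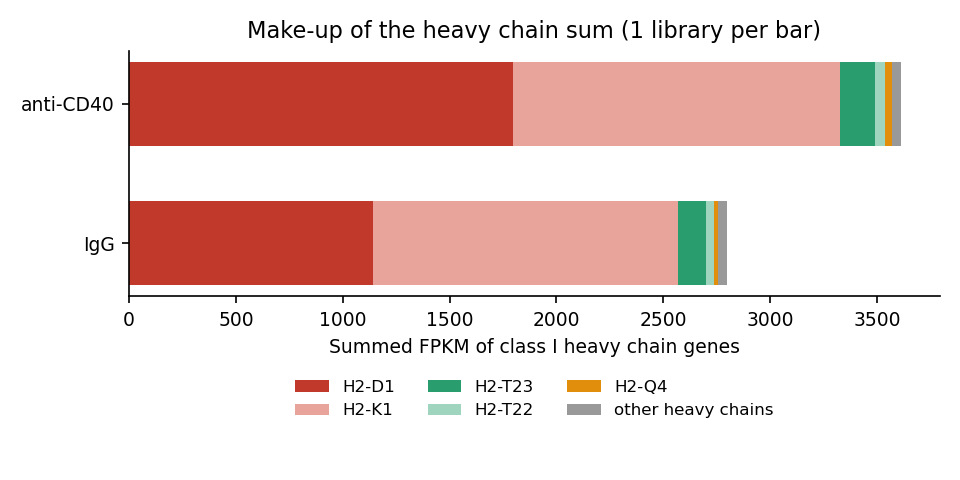
Summed FPKM of the class I heavy chain genes in each library, 1 bar per library, split by gene. The anti-CD40 bar reaches 3614 FPKM and the IgG bar 2798, and the H2-D1 segment (1795 against 1143 FPKM) holds most of the gap.

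The peptide-loading genes differed gene by gene. Tap1 and Tap2 encode both subunits of the TAP peptide transporter and lie near each other on chromosome 17 (34187556 to 34197225 and 34204479 to 34216321). Tap2 had 30.2 FPKM under anti-CD40 against 21.0 under IgG, a ratio of 1.44 (interval 1.16 to 1.77). Tap1 had 15.9 and 14.5 FPKM, a fold of 1.10 with an interval from 0.995 to 1.22 that is centred near the median gene. The level of Tap2 was thus 1.90 times that of Tap1 with anti-CD40 and 1.45 times with IgG. Tapbp, the gene of tapasin, which holds empty class I molecules at TAP (chromosome 17, 33919478 to 33929290), was lower with anti-CD40 at 131 FPKM against 147 with IgG. The ratio was 0.887 (interval 0.830 to 0.948), and Tapbp was lower under each of the 6 scalings and pseudocounts tried. Here too the agreement was fixed in advance, because scaling both libraries to the same sum moved the log2 ratio only from -0.172 to -0.124. Tapbpl, the gene of the tapasin-related peptide editor TAPBPR (chromosome 6, 125223927 to 125231860), had 4.80 against 3.25 FPKM, a ratio of 1.48 (interval 1.2 to 1.84). Tapbpl overlaps E130112N10Rik, a long noncoding RNA gene at 0.517 FPKM under anti-CD40 against 0.0533 under IgG, and the strand setting of the counting is not given in the sources used here, so reads in the overlap could belong to either. Tapbp exceeded Tapbpl 27.2 times with anti-CD40 and 45.3 times with IgG.

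Erap1, the aminopeptidase that trims peptides in the endoplasmic reticulum (chromosome 13, 74639573 to 74693205), had 4.92 FPKM under anti-CD40 against 4.70 under IgG, with an interval from 0.705 to 1.6 on its fold. Its 3' end overlaps Cast, at 9.51 and 10.1 FPKM. Nlrc5, the transactivator of class I genes (chromosome 8, 94434335 to 94527272), had 2.24 and 2.0 FPKM, a fold of 1.12 with an interval from 0.793 to 1.58. The fragment numbers behind these intervals use the median length of each gene's annotated transcripts, which is 540 bases for Erap1 and 1721 for Nlrc5. With the longest coding transcript (5644 and 7578 bases) the interval was 0.926 to 1.18 for Erap1 and 0.955 to 1.32 for Nlrc5, and both still hold 1. Among the 19 genes, this other length moved 1 interval to another side of 1, that of Tap1 (from 1.001 to 1.21), and 0 to another side of the median gene.

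**Figure D4:**
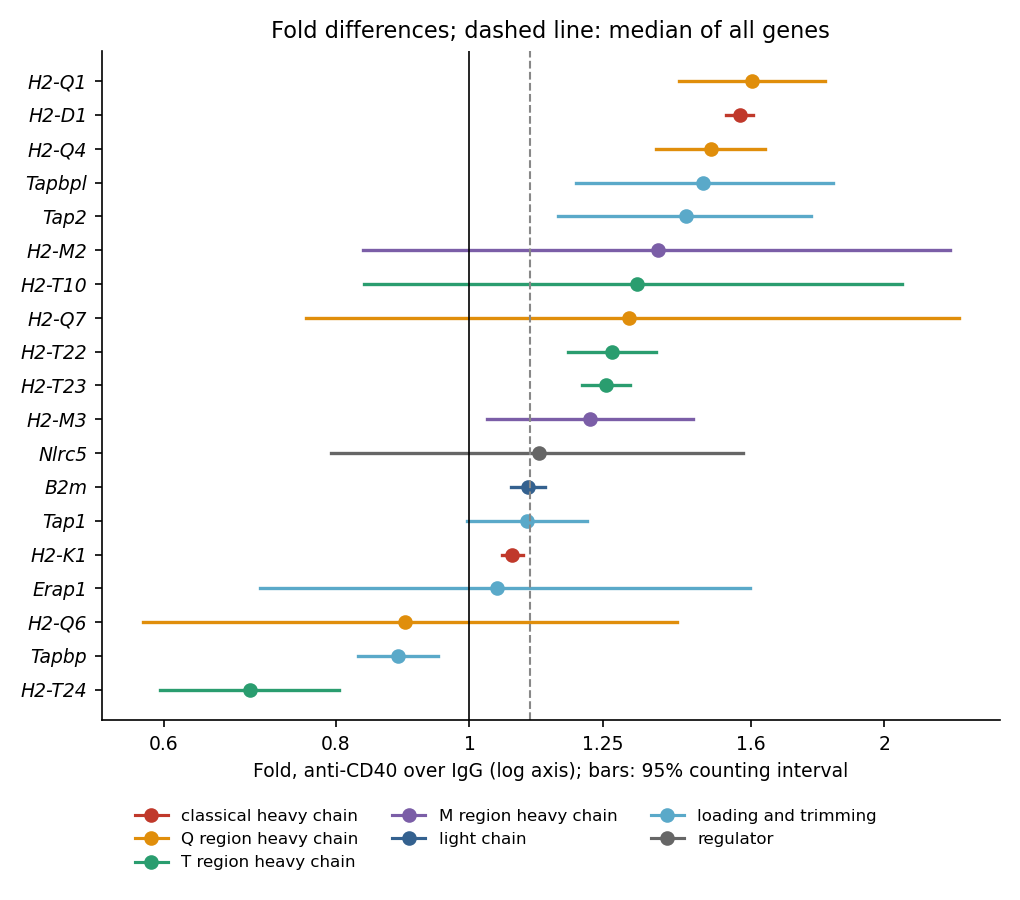
Fold of FPKM, anti-CD40 over IgG, on a log axis for 19 genes, with bars for the 95% counting interval, colours for the role of the gene, a solid line at 1 and a dashed line at the median fold of all genes (1.11). The intervals of H2-Q1, H2-D1, H2-Q4, Tapbpl, Tap2, H2-T22 and H2-T23 lie to the right of the dashed line and those of H2-K1, Tapbp and H2-T24 to its left.

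Of the 35 genes, 19 reached 1 FPKM in at least 1 library, 3 stayed between 0.163 and 0.725 FPKM and 13 were listed at 0 in both. On the scale of the log2 ratio of (FPKM + 1), which understates differences of low genes, 8 of the 19 reached a 1.2-fold higher value under anti-CD40, against 25.9% of all 9591 genes at 1 FPKM or more. They were H2-D1, H2-Q1, H2-Q4, H2-T22, H2-T23, H2-M3, Tap2 and Tapbpl. H2-T24 alone was at least 1.2-fold lower, against 10.7% of all genes. At 1.5-fold, 2 were higher (H2-D1 and H2-Q1), against 2.68% of all genes, and 0 were lower, against 2.15%. 0 were 2-fold apart, against 0.25% of all genes higher and 0.313% lower. Relative to the median of all genes, 5 were at least 1.2-fold higher, against 11.5%, and 2 were lower (H2-T24 and Tapbp), against 18.1%. On that scale 0 were 1.5-fold higher, against 1.23%, 1 was 1.5-fold lower (H2-T24), against 4.23%, and 0 were 2-fold apart, against 0.136% higher and 0.563% lower. The median log2 ratio was 0.23 over the 19 genes and 0.12 over all genes. It was 0.26 over the 12 heavy chains and 0.13 over the other 7 genes. A log2 ratio above 0 was found for 16 of the 19, against 67.8% of all genes. Of the 19 genes, 13 lay above the median of all genes, against 50% of all genes by construction. The direction was higher for 13 genes and lower for 3 (H2-T24, Tapbp and H2-Q6) under each of the 6 scalings and pseudocounts tried. It depended on the setting for H2-K1, Erap1 and Nlrc5. This agreement was fixed in advance by the main values. A pseudocount cannot change a direction, and centring turns only genes between 0 and the median of all genes. Upper-quartile scaling lowered the ratios by slightly less than centring. The 13 higher genes are therefore the same 13 that lay above that median. Scaling to the same sum moved H2-Q6, the lower gene nearest to no difference, only from -0.092 to -0.063. The H2-Q6 interval also holds 1.

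**Figure D5:**
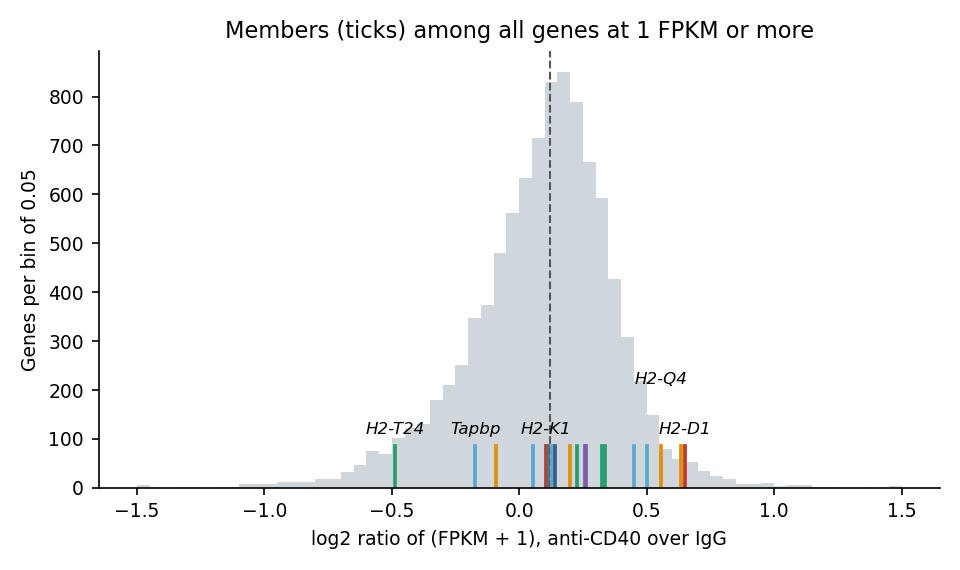
Histogram of the log2 ratio of (FPKM + 1), anti-CD40 over IgG, for 9591 genes (ratios beyond 1.5 in either direction are drawn in the end bins), with ticks for the 19 class I and loading genes in the colours of the plot of folds and a dashed line at the median of all genes. The ticks run from -0.49 for H2-T24 to 0.65 for H2-D1. H2-D1 and H2-Q1 lie among the 2.68% of genes at least 1.5-fold higher. H2-T24 lies among the 10.7% at least 1.2-fold lower.

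Partners of class I processing were read from lists of genes outside the group, which share the 2 libraries. The immunoproteasome and its activator differed subunit by subunit. Psmb9, whose gene adjoins Tap1, had 46.5 FPKM under anti-CD40 against 32.7 under IgG, a ratio of 1.42 (interval 1.27 to 1.6). Psmb10 was 1.52-fold lower (interval 1.45-fold to 1.59-fold) at 226 against 343 FPKM, and Psmb8 had 149 against 159. Of the activator subunits, Psme2 had 158 against 113 FPKM, Psme1 191 against 213 and Psme3 16.6 against 15.0. The list median was 0.02 over 6 genes, with 2 at least 1.2-fold higher and 1 lower, against 25.9% and 10.7% of all genes. The level of Psmb10 was 4.86 times that of Psmb9 with anti-CD40 and 10.5 times with IgG.

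The chaperones that fold class I heavy chains had a median of 0.10 over 6 genes, with 1 at least 1.2-fold higher and 0 lower, against the same 25.9% and 10.7%. That gene was Canx, which encodes calnexin, at 40.4 against 30.6 FPKM. Calr, the calreticulin gene, had 249 against 257 FPKM (slightly higher, not lower, once both libraries were scaled to the same sum), Pdia3, the gene of the disulfide isomerase ERp57, 121 against 110, and Hspa5 158 against 135. The glucosidase subunit Ganab had 19.3 against 18.8 FPKM and the glycoprotein glucosyltransferase Uggt1 8.41 against 8.04.

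Of the listed regulators of class I promoters, 13 of 14 reached 1 FPKM, with a median of 0.19, 4 at least 1.2-fold higher and 2 lower, shares near the 25.9% and 10.7% of all genes. The 3 most abundant were Irf8, with 69.3 against 62.9 FPKM, Rela, the NF-kB subunit p65, with 54.8 against 49.5, and Irf1, with 21.2 against 12.6. The Irf1 ratio was 1.68 (interval 1.41 to 2.01). Among paired and inhibitory receptors of myeloid cells, Pirb had 280 FPKM under anti-CD40 against 307 under IgG, Pira2 24.8 against 23.1, Pira1 21.1 against 20.3 and Lilra6 2.03 against 1.69. Lilrb4a had 579 against 553 FPKM, Lilr4b 422 against 378 and Siglece 4.51 against 4.71, while Cd160 stayed under 1 FPKM. The median of that list was 0.07 over 7 genes, with 0 at least 1.2-fold apart in either direction, against 25.9% of all genes higher and 10.7% lower. Of the reference genes, Actb had 1766 against 1813 FPKM, with a direction that turned to slightly higher once both libraries were scaled to the same sum. Gapdh had 9.16 against 13.1 FPKM, far below Actb. Whether that low level is a failed estimate was not tested, so Gapdh is a weak reference here.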

How the data were processed

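RNA was sequenced from 2 libraries, 1 per group, prepared from 1.3 ug of TRIzol-extracted RNA with a TruSeq kit, per the labels' protocols. HISAT2 2.1.0, StringTie (no version) and build mm10 are named in the submitters' processing notes. Annotation, strand setting, read length and filters were left unstated (not given in the sources used here). Each gene has 1 value per library in the table that the authors deposited, taken as FPKM because StringTie is named and the columns sum to 529104 (anti-CD40) and 547362 (IgG). Columns were assigned by name, and 0 were left unused.

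The measure was the log2 ratio of (FPKM + 1) among genes whose higher value was at least 1. Depth came from single-exon genes with 1 transcript, whose FPKM times RefSeq length should be whole multiples of a step: 73.4% of 64 low genes (anti-CD40) and 88.2% of 34 (IgG) were whole within 0.05 steps. With 600 steps, the commonest multiple, taken as a fragment of 300 bases, 1 FPKM and kilobase is worth 20.5 and 18.6 fragments. Fragments per gene used the median GENCODE transcript length, so intervals rest on that length. Intervals (SciPy 1.17.1) and windows aligned with Biopython 1.88 (match 2, mismatch -1, gap opening -5, extension -1, free ends) were computed in Python 3.11.15. Counting was tried on simulated data at 2-fold alone, with larger planted changes in genes well above 1 FPKM. That does not test the counts at 1.2-fold and 1.5-fold given here.

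Genes named were all members at 1 FPKM or more, all of the immunoproteasome, chaperone and receptor lists, the 3 most abundant of other lists, and Actb and Gapdh. Genes named outside this rule, such as overlapping neighbours, were picked with their values in view. The members and lists were chosen with earlier results of these data known. Alternatives were pseudocounts of 0.1 and 5, centring, 2 rescalings and 3 filters. No protein sequences were used here.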

Additional observations from a re-analysis of the deposited data

How the results depend on the processing

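With 1 library per group, no library could be left out. No paired analysis was possible because each group holds 1 library and the labels carry no replicate numbers. None of the results at least 1.2-fold apart changed sign under the alternatives run. For single genes this was fixed in advance: a pseudocount cannot change a sign, and each scaling moved folds by less than 1.2-fold. The counts of genes at least 1.2-fold apart, 8 higher and 1 lower, became 5 and 2 after centring on the median (11.5% and 18.1% of all genes) and also 5 and 2 after upper-quartile scaling (13.6% and 16.6%), and without a filter 8 and 2 (15.2% and 6.94%). At 1.5-fold, 2 higher and 0 lower became 0 higher and 1 lower under both of these scalings (1.23% and 4.23% of all genes when centred, 1.47% and 3.81% at the upper quartile), and 1 higher with a pseudocount of 5 (0.845%). The 1.2-fold counts were 11 and 1 with a pseudocount of 0.1 (33.2% and 12.5%) and 6 and 1 with 5 (12.2% and 6.71%). Scaling to the same sum gave 9 and 1 (32.3% and 8.88%), and a filter at 5 FPKM gave 7 and 1 (28.4% and 12.8%). The median log2 ratio of the 19 genes, 0.23, was 0.10 with a pseudocount of 5 and 0.11 after centring. The median of all genes, 0.12, was 0.0674 and 0 in these settings. The log2 ratio of the summed heavy chains, 0.37, was 0.25 after upper-quartile scaling. After centring, list medians were -0.10 (immunoproteasome), -0.0216 (chaperones), 0.0725 (promoter regulators), -0.0056 (MHC-like molecules), -0.0555 (receptors) and 0.0608 (cross-presentation). After upper-quartile scaling they were -0.0935 (immunoproteasome), -0.0099 (chaperones), 0.0875 (regulators), -0.0505 (receptors) and 0.0757 (cross-presentation). These shifts follow from subtracting the median of 0.12 or its like. A larger pseudocount shrinks the ratios of low genes: with 5, the H2-Q1 log2 ratio went from 0.636 to 0.502. The gene that joined the lower ones without a filter was H2-Q10, at 0.421 FPKM under anti-CD40 against 0.725 under IgG. Counting error limits H2-Q6, H2-Q7, H2-T10 and H2-M2, at 25 to 52 fragments per library. Of 19 intervals, 7 held 1 with median transcript lengths and 6 with the longest coding ones, an alternative added after the data were seen.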

Other observations

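MHC-like molecules encoded outside the H2 region, from a list of 13 measured genes, had 6 members at 1 FPKM or more, with a median log2 ratio of 0.12, 1 at least 1.2-fold higher and 1 lower, against 25.9% and 10.7% of all genes at 1 FPKM or more. The 3 most abundant were Fcgrt, which encodes the neonatal Fc receptor, at 45.9 FPKM under anti-CD40 against 63.8 under IgG, Hfe, the iron-regulating molecule mutated in haemochromatosis, at 7.73 against 6.46, and Procr, the endothelial protein C receptor, at 6.25 against 5.83. All 3 share the class I fold. Fcgrt and Hfe pair with the same light chain, B2m, whose fold was 1.10. Fcgrt was 1.39-fold lower with an interval from 1.28-fold to 1.51-fold.

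Genes of cross-presentation and surface turnover of class I had a median of 0.18 over 9 genes at 1 FPKM or more, with 3 at least 1.2-fold higher and 0 lower, against 25.9% and 10.7% of all genes. The most abundant were the translocon subunit Sec61b, at 149 against 118 FPKM, the NADPH oxidase subunit Cybb, at 73.8 against 56.5, and the translocon subunit Sec61a1, at 50 against 55.8, so both Sec61 subunits lay on different sides of 1.

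Class I-like rows whose symbols fall outside the rule were looked at after the values were seen. H2-T-ps, a T region pseudogene, measured 3.04 FPKM under anti-CD40 against 1.52 under IgG, Gm11127 1.17 against 0.659, and Gm8909 and Gm10499 stayed under 0.2 in both libraries. LOC547349 measured 0.0585 under anti-CD40 but was listed at 0 under IgG, and Gm7030 and H2-Bl were listed at 0 in both. With these 7 rows added, the heavy chain sum was 3618 against 2800 FPKM, and its fold stayed at 1.29.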
